A study of Pseudotaxus chienii with 9 samples.

Results

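Lipoxygenase 1 (PchiChr2G052390) and 12-oxophytodienoate reductase 7 (PchiChr7G216060) are 2 of the 26827 genes measured in Pseudotaxus chienii leaves. The species is a conifer related to the yews. They were picked by name as steps of jasmonate synthesis whose transcripts were close to absent in CK leaves, so their levels against CK chose them and are described here without a test. The polyA RNA of 9 libraries was sequenced, with 3 libraries in each of 3 groups: leaves labelled methyl jasmonate (MeJA) for 2 days, leaves labelled MeJA for 1 day, and leaves labelled CK. MeJA is the volatile methyl ester of jasmonic acid, the hormone of wounding and defence in plants. The labels give no dose, no plant age and no treatment or sampling time for CK, and do not say whether libraries came from separate plants. The p-values therefore reflect the spread among libraries alone, and that spread may be technical.

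Jasmonate synthesis starts in the chloroplast, where a lipase frees linolenic acid from membrane lipids and a 13-lipoxygenase adds oxygen to it. Allene oxide synthase and allene oxide cyclase turn the product into 12-oxophytodienoic acid, a reductase in the peroxisome reduces its ring, and rounds of beta-oxidation shorten the side chain to give jasmonic acid. In rice the reductase named OPR7 serves this step, and in Arabidopsis OPR3 does. In angiosperms the enzymes of the pathway are known to be switched on by the hormone they make. Lipoxygenases that add oxygen at the other position, the 9-lipoxygenases, feed other oxylipins and not jasmonate.

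The lipoxygenase 1 gene lies on the minus strand of chromosome 2, from 232263 to 235473 in the block that the deposited table numbers 1000000001. Its name is a match to a Taxus wallichiana protein, and its annotations disagree on the reaction. The gene ontology term is linoleate 13S-lipoxygenase activity, while the KEGG orthology entry, K15718, is that of linoleate 9S-lipoxygenase and is carried by 20 genes of the table. Which position the enzyme oxidises is therefore not known from these annotations. The reductase gene lies on the minus strand of chromosome 7, from 133597908 to 133604089 in the block numbered 1000000001. It was named by a match to an Amborella trichopoda protein, carries terms for the peroxisome and for jasmonic acid biosynthesis, and shares its orthology entry, K05894, with 10 other genes. The sources used here do not give the genome build behind these positions.

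Total estimated counts ran from 48893949 to 58703021 per library, and both genes passed the filter on low counts. Library 2 of the 1-day group stood apart from its group, with Pearson correlations across genes of 0.895 and 0.890 (log2 CPM) against 0.972 between its partners and 0.940 to 0.975 within the other groups. The 12 genes of leaf photosynthesis, 10 of them at 1 FPKM or more in a library, marked the tissue. Their summed level was 598 to 3652 FPKM at 2 days, 830 to 6536 FPKM at 1 day and 8807 to 10850 FPKM in CK, lowest in library 2 of each treated group, and 1 of them was at 0 throughout the 1-day group. The 48 genes named for pollen, seed or allergen proteins summed to 935 to 2615 FPKM at 2 days, 1146 to 3028 FPKM at 1 day and 396 to 573 FPKM in CK, with 3, 5 and 7 of them at 0 throughout the group. The 30 genes named for woody tissue summed to 106 to 139 FPKM at 2 days, 109 to 194 FPKM at 1 day and 40.4 to 51.2 FPKM in CK, with 3, 5 and 8 of them at 0 throughout the group. Both of these lists were highest in library 2 of the 1-day group. The part of these lists in the levels below was not tested. In bulk leaf RNA, more cells of a type that expresses a gene and more transcript per cell cannot be told apart.

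Lipoxygenase 1 was present in every treated library and close to absent in CK. In MeJA leaves at 2 days it stood at 16.6, 3.11 and 5.68 FPKM in libraries 1 to 3. At 1 day it stood at 18.8, 225 and 11.8 FPKM, and in CK at 0.590, 0.274 and 0.111 FPKM. Every treated library lay above every CK library, and library 2 of the 1-day group lay far above all the others. The gene was chosen for its low level in CK, so the separation adds no support. The share of all genes that separate so, or peak in that library, was not counted. FPKM here is the authors' value, which scales fragments by the length of the gene and the size of the library. The estimated counts behind these levels were 2278, 454 and 919 at 2 days, 2856, 33715 and 1728 at 1 day, and 95, 42 and 17 in CK. Counting precision was therefore lowest in CK.

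The mean level of lipoxygenase 1 was 8.45 ± 7.15 FPKM at 2 days, 85.4 ± 121 FPKM at 1 day and 0.325 ± 0.243 FPKM in CK (SD, n = 3 each). These means were 26.0-fold the CK mean at 2 days and 263-fold at 1 day. The SD of the 1-day group exceeded its mean, because library 2 held 88.0% of that group's summed FPKM. Without it the 1-day mean was 15.3 FPKM. A more cautious ratio, the lowest treated library over the highest CK library, was 5.27 at 2 days and 20.0 at 1 day. Among all genes of a library, lipoxygenase 1 ranked 350th by FPKM in library 2 of the 1-day group, between 5447th and 13266th in the other 5 treated libraries, and between 18467th and 21080th in CK.

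12-Oxophytodienoate reductase 7 was detected in every treated library, at a low level, and had no count in CK. At 2 days it stood at 0.814, 1.98 and 0.431 FPKM, and at 1 day at 1.01, 4.63 and 0.501 FPKM. In CK it stood at 0 FPKM in all 3 libraries. The estimated counts were 55, 142 and 35 at 2 days, 75, 340 and 37 at 1 day, and 0, 0 and 0 in CK. As for lipoxygenase 1, library 2 of the 1-day group was the highest of all, and no treated library overlapped CK. The reductase too was chosen for its low level in CK, and the share of all genes with this pattern was not counted.

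The mean of the reductase was 1.08 ± 0.807 FPKM at 2 days and 2.05 ± 2.25 FPKM at 1 day (SD, n = 3 each), and 0.754 FPKM at 1 day without library 2. With 0 counts among 167283392 in CK, a floor of 3 counts over the CK group gives 0.0179 CPM. Against that floor the gene was at least 80.7-fold higher at 2 days and at least 157-fold higher at 1 day, on summed counts. Library by library it was at least 62.7-, 150- and 33.2-fold higher at 2 days, and at least 77.2-, 352- and 39.0-fold higher at 1 day. The floor covers counting error only.

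**Figure D1:**
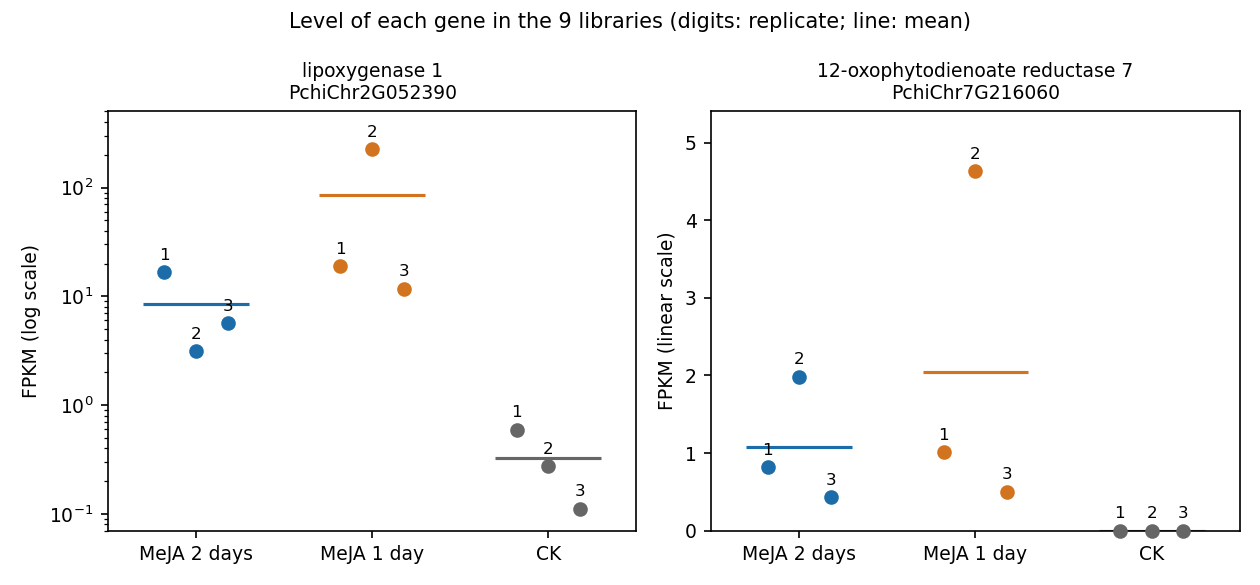
FPKM of lipoxygenase 1 (left, log axis) and 12-oxophytodienoate reductase 7 (right, linear axis) in MeJA 2 days, MeJA 1 day and CK leaves. Each point is a library with its replicate number, and lines are group means. All treated libraries lie above all CK libraries for both genes, and library 2 of the 1-day group is the highest at 225 and 4.63 FPKM. The genes were chosen for low levels in CK, and the share of all genes with this pattern was not counted.

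The treated libraries did not order the genes in the same way. Lipoxygenase 1 was lowest of the 6 treated libraries in library 2 of the 2-day group, where the reductase was second highest. The level of lipoxygenase 1 per level of the reductase was 20.4, 1.57 and 13.2 at 2 days and 18.7, 48.7 and 23.5 at 1 day, in FPKM. Library 2 of each treated group thus held the lowest and the highest of these 6 ratios.

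The contrast between the treated groups was not used to choose the genes. Neither gene passed the test after adjustment over all genes. For lipoxygenase 1 the log2 fold change, 2 days over 1 day, was -3.50 (SE 1.27, 95% interval -6.41 to -0.58). That is a fold of 0.0887, with an interval of 0.0117 to 0.670. The interval, for this gene alone, lies below 0. The edgeR quasi-likelihood p was 0.0245 before adjustment and 0.954 after Benjamini-Hochberg adjustment over 22384 genes. Across alternative settings the adjusted p ran from 0.180, with DESeq2, to 1.0. Without library 2 of the 1-day group this became -0.86 on the log2 scale (SE 0.75, edgeR adjusted p = 0.878). The 3 libraries of the 2-day group ranged from 3.11 to 16.6 FPKM and overlapped the 1-day range of 11.8 to 225 FPKM.

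For the reductase the log2 fold change, 2 days over 1 day, was -0.95 (SE 1.05, 95% interval -3.49 to 1.59, edgeR adjusted p = 0.965). The fold was 0.517, with an interval of 0.0888 to 3.01 that spans changes in either direction. Without library 2 of the 1-day group the sign turned, at 0.62 (SE 0.89, edgeR adjusted p = 0.935). By mean level both genes ran in the order 1 day, 2 days and CK, and the ranges of the treated groups overlapped. Over the whole table edgeR called 0 of 22384 genes (0.0%) between the days, with 949 at an unadjusted p under 0.05, and DESeq2 called 64 (0.283%).

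**Figure D2:**
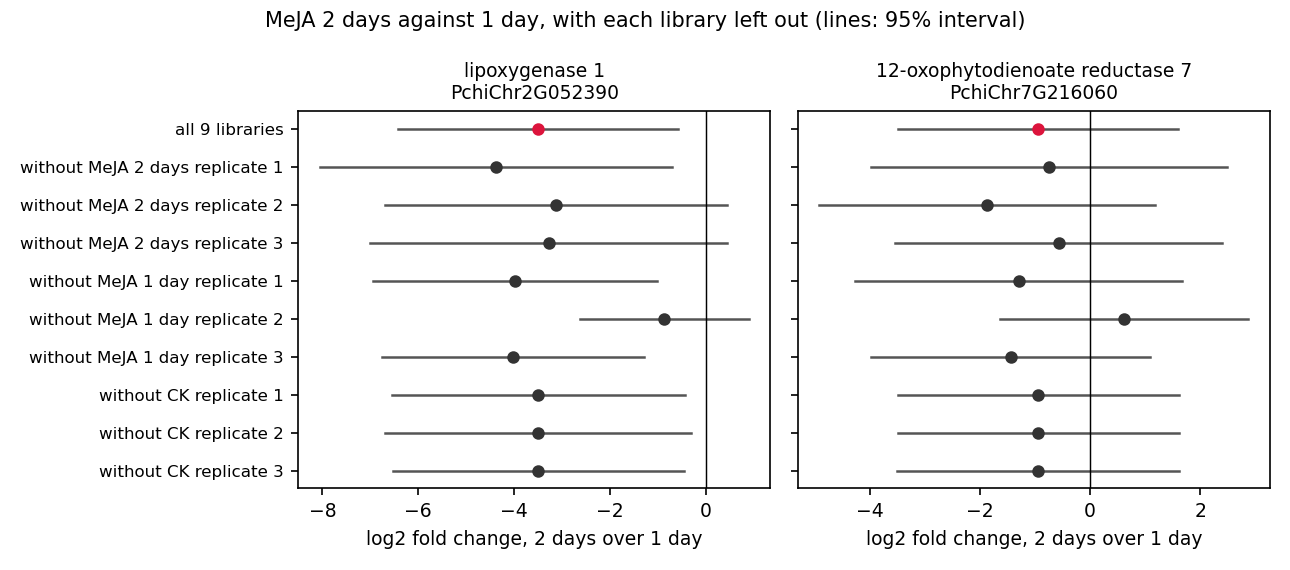
Log2 fold change of each gene, MeJA 2 days over MeJA 1 day, from the edgeR fit of all 9 libraries (top row) and with each library left out. Points are estimates and lines 95% intervals. Leaving out library 2 of the 1-day group moves lipoxygenase 1 to -0.86 and the reductase to 0.62, and leaving out CK libraries hardly moves either.

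Each gene has a neighbour of the same name. PchiChr7G216050, also named 12-oxophytodienoate reductase 7, lies 110 kb from the reductase on the same strand. It stood at 107, 163 and 115 FPKM at 2 days, at 121, 123 and 149 FPKM at 1 day, and at 101, 118 and 76.6 FPKM in CK. This copy was thus abundant in every library, CK included, and did not pass the test in any contrast. Its log2 fold change was 0.53 at 2 days over CK (SE 0.28, edgeR adjusted p = 0.282) and 0.55 at 1 day over CK (SE 0.28, edgeR adjusted p = 0.270). The near-silent reductase amounted to 0.375 to 1.22% of the FPKM of this copy at 2 days and to 0.336 to 3.76% at 1 day. In CK the copy had 31289 estimated counts and the near-silent gene none. The sources used here do not give how the authors' counting split reads between similar copies, so the low level of PchiChr7G216060 is uncertain to that extent.

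PchiChr2G052420, also named lipoxygenase 1, lies 463 kb from PchiChr2G052390 on the opposite strand. It stood at 1.82, 1.17 and 0.800 FPKM at 2 days, at 0.979, 0.476 and 0.757 FPKM at 1 day, and at 1.18, 0.914 and 0.955 FPKM in CK. All groups overlapped. It did not pass the test against CK at 2 days (log2 fold change 0.43, SE 0.38, edgeR adjusted p = 0.513) or at 1 day (-0.34, SE 0.38, edgeR adjusted p = 0.600). In library 2 of the 1-day group, where PchiChr2G052390 peaked, this copy was at its lowest level.

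None of the remaining flanking genes was lower in all CK libraries than in all treated libraries. The order of genes across blocks takes the block number as an offset along the chromosome. On one side of lipoxygenase 1, PchiChr2G052380, named for the chloride channel CLC-d, had means of 5.80 ± 1.69, 5.63 ± 1.88 and 4.96 ± 0.313 FPKM at 2 days, at 1 day and in CK (SD, n = 3 each). Next to it, PchiChr2G052370, named UPF0481, had means of 1.43 ± 0.233, 0.851 ± 0.431 and 0.511 ± 0.302 FPKM in the same order. On the other side, PchiChr2G052430, named for the acetyltransferase subunit NAA20, had means of 109 ± 34.6, 109 ± 11.9 and 144 ± 5.05 FPKM. The other neighbours of the reductase, PchiChr7G216040, PchiChr7G216070 and PchiChr7G216080 (bHLH94), stayed under 1 FPKM in every library.

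Beside the other lipoxygenases, PchiChr2G052390 was a minor transcript except in a single library. The groups of genes that share an orthology entry were formed after values were seen, so shares and ranks are given with no test. The gene made up 1.40, 0.0869 and 0.229% of the summed FPKM of the 20 genes of its entry at 2 days. At 1 day it made up 1.12, 50.1 and 0.462%, and in CK 0.0301, 0.0176 and 0.00916%. In library 2 of the 1-day group it ranked first of the 20, and in the other treated libraries between 9th and 14th. That rank came with a low total as well as a high level of its own. The summed FPKM of the entry was 450 in that library, against 1676 and 2549 in its partners, 1187 to 3579 at 2 days and 1212 to 1959 in CK. PchiChr4G103460, on average the most abundant gene of the family, stood at 4.61 FPKM there and at 593 and 805 FPKM in the other 1-day libraries.

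The 2 genes that carry the orthology entry of linoleate 13S-lipoxygenase, K00454, differed from each other in level. Together they summed to 335, 647 and 344 FPKM at 2 days, to 272, 494 and 384 FPKM at 1 day, and to 68.9, 75.1 and 59.4 FPKM in CK. Most of this was PchiChr9G260770, which stood at 308, 521 and 292 FPKM at 2 days, at 256, 490 and 350 FPKM at 1 day, and at 56.3, 56.2 and 46.0 FPKM in CK. The other, PchiChr2G050940, stood at 26.3, 126 and 51.9 FPKM at 2 days, at 16.0, 3.97 and 34.3 FPKM at 1 day, and at 12.7, 19.0 and 13.4 FPKM in CK. It lay below lipoxygenase 1 in libraries 1 and 2 of the 1-day group. PchiChr9G260770 was well expressed in CK, and its treated libraries lay between 256 and 521 FPKM.

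Genes described as lipoxygenase 2 behaved differently from lipoxygenase 1 across libraries. PchiChr4G104000 stood at 99.1, 626 and 27.9 FPKM at 2 days, at 118, 5.94 and 29.7 FPKM at 1 day, and at 3.73, 8.19 and 1.60 FPKM in CK. Its highest library was library 2 of the 2-day group, the lowest treated library for lipoxygenase 1, and its lowest treated library was library 2 of the 1-day group, the highest for lipoxygenase 1. It did not pass the test at 2 days (log2 fold change over CK 6.03, SE 1.62, edgeR adjusted p = 0.0739) or at 1 day (3.62, SE 1.44, edgeR adjusted p = 0.180). PchiChr4G104080 was at 0, 4.41 and 0.0949 FPKM at 2 days and at 0.417, 0 and 0.836 FPKM at 1 day, with no count in CK. PchiChr9G255550 ranged from 7.07 to 8.44 FPKM at 2 days, from 7.49 to 8.73 FPKM at 1 day and from 9.49 to 12.9 FPKM in CK, and did not pass the test (edgeR adjusted p = 0.224 at 2 days and 0.259 at 1 day).

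Among the 11 genes with the reductase entry, PchiChr7G216060 ranked 8th or 9th by FPKM in the treated libraries. It made up 0.273, 0.489 and 0.178% of their summed FPKM at 2 days, 0.445, 0.657 and 0.195% at 1 day, and none in CK. PchiChr11G302180, named 12-oxophytodienoate reductase 3, was another reductase with no count in CK. It reached 66.5 FPKM in library 2 of the 2-day group and was under 0.5 FPKM in every other library. PchiChr12G324810, which carries the entry but is described only as unknown, stood at 63.3, 70.2 and 34.0 FPKM at 2 days, at 23.7, 353 and 30.5 FPKM at 1 day, and at 22.4, 10.7 and 16.8 FPKM in CK. Of the 11 genes of the entry, 9 were highest in library 2 of the 1-day group, PchiChr7G216060 and PchiChr12G324810 among them. Some of these peaks were near the floor, as for PchiChr12G324430 at 0.908 FPKM and PchiChr1G034680 at 0.203 FPKM. In the lipoxygenase entry 2 of 20 genes were highest in that library, among them lipoxygenase 1. That library stood apart from its group, and how many of all genes peaked in it was not counted. These counts are therefore not read as a trait of either family.

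**Figure D3:**
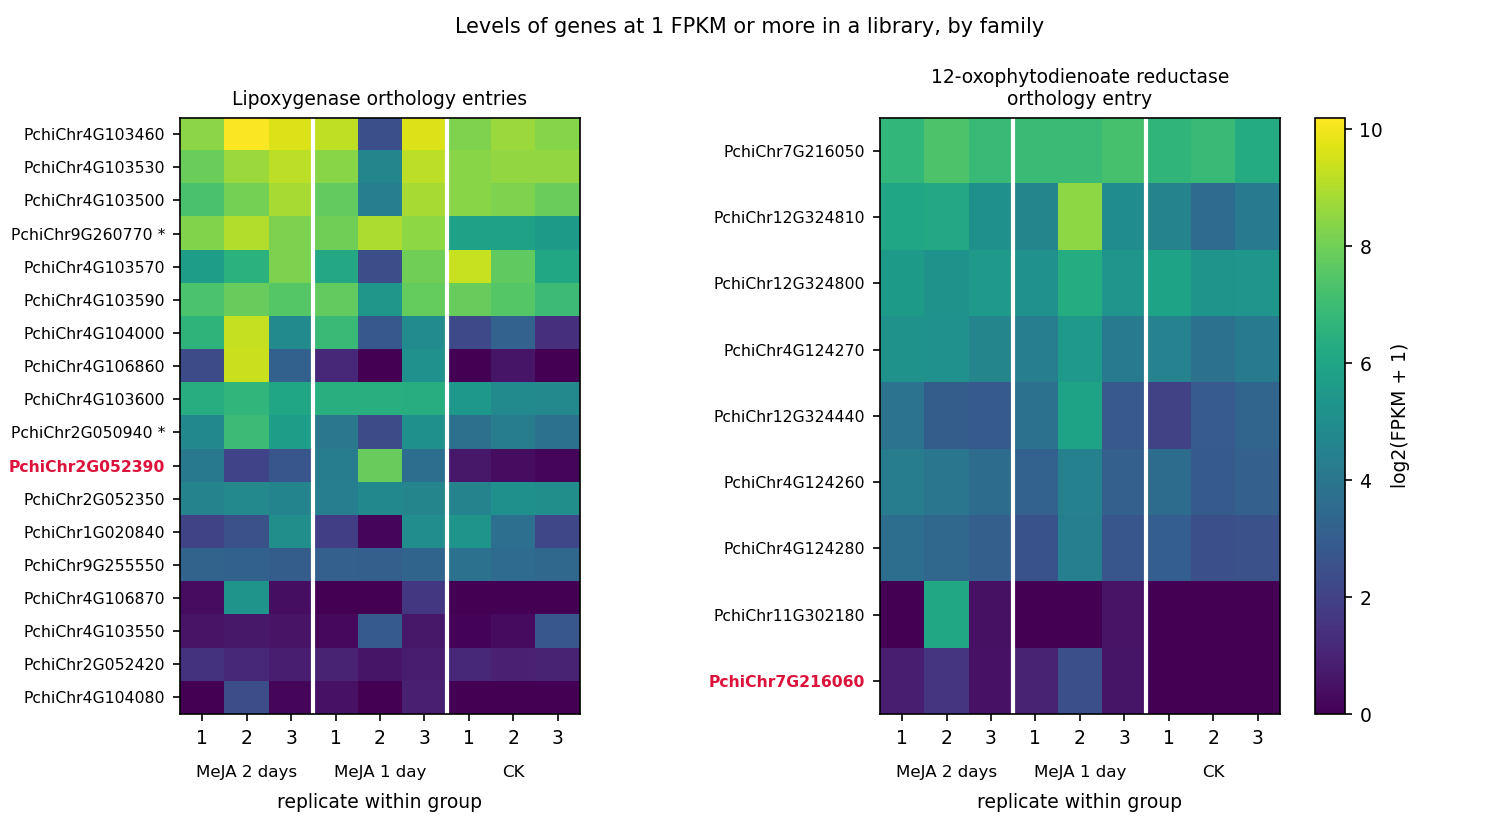
Level, as log2(FPKM + 1), of the genes at 1 FPKM or more in a library that carry a lipoxygenase orthology entry (left, 18 genes) or the 12-oxophytodienoate reductase entry (right, 9 genes), in MeJA 2 days, MeJA 1 day and CK libraries. Rows run from the highest mean to the lowest, an asterisk marks K00454, and the chosen genes are in red. PchiChr2G052390 is highest in library 2 of the 1-day group, and PchiChr7G216060 is at the foot of its family.

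The table held 31 other genes named for jasmonate synthesis, of which 19 passed the filter on low counts. The filter can be passed through the treated libraries alone, as by the 2 genes with no count in CK, so medians over these 19 only describe the genes tested. At 2 days over CK, edgeR called 0 of the 19, against 4.95% of all genes, or 4.09% counting the higher ones. At an unadjusted edgeR p under 0.05 were 13 of the 19, against 5526 of all 22384 genes tested. DESeq2 gave an adjusted p to 20 of the 31 and called 12, of which 11 were among the 19, against 17.0% of all genes. The median log2 fold change was 2.57 over the 19, with 16 positive, and 2.72 over the 31, with 25 positive (DESeq2). Over all genes tested by edgeR it was 0.03. At 1 day over CK, edgeR called 2 of the 19, both higher, against 5.34% of all genes, or 4.34% counting the higher ones. At an unadjusted edgeR p under 0.05 were 9 of the 19, against 5328 of all 22384 genes tested. DESeq2 gave an adjusted p to 18 of the 31 and called 7, against 16.6% of all genes. The median was 2.11 over the 19, with 16 positive, against 0.03 over all genes tested by edgeR. Over the 26 genes with a count in either group it was 1.85, with 21 positive (DESeq2), and over all 31, with the other 5 at no change, it was 0.55. Between the days edgeR called 0 of the 19. At an unadjusted edgeR p under 0.05 were 2 of the 19, against 949 of all 22384 genes tested. DESeq2 called 0 of the 18 to which it gave an adjusted p. At an unadjusted DESeq2 p under 0.05 were 4, against 1550 over the whole table. The treated groups share the CK libraries.

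No description matched the omega-3 desaturase, allene oxide cyclase or OPC-8:0 CoA ligase lists. By its orthology entry, K10525, PchiChr7G216620 is an allene oxide cyclase, the enzyme that makes 12-oxophytodienoic acid. It stood at 151, 348 and 238 FPKM at 2 days, at 147, 133 and 213 FPKM at 1 day, and at 115, 166 and 145 FPKM in CK. It was abundant in every library, and its groups overlapped.

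The genes called by edgeR at 1 day over CK were allene oxide synthases. These are the cytochromes P450 of the CYP74 family that act directly after the lipoxygenase. The genes called by DESeq2 were more numerous and are not listed by step here. PchiChr4G104010 stood at 6.61, 11.0 and 5.01 FPKM at 2 days, at 9.23, 16.2 and 4.05 FPKM at 1 day, and at 0.922, 0.990 and 0.0944 FPKM in CK. At 1 day over CK it rose by 4.06 on the log2 scale (SE 0.92, edgeR adjusted p = 0.0451). PchiChr4G104110 stood at 3.52, 2.78 and 2.55 FPKM at 2 days, at 3.91, 11.8 and 1.38 FPKM at 1 day, and at 0.621, 0.202 and 0.0730 FPKM in CK. At 1 day over CK it rose by 4.44 on the log2 scale (SE 1.00, edgeR adjusted p = 0.0447). In both genes no treated library overlapped CK, and library 2 of the 1-day group was the highest, as it was for the chosen genes. Both are described because the same fit called them against CK, so this separation adds no support. How many of all genes separate in this way, or peak in that library, was not counted. Both calls sat close to the threshold. Without any one library other than library 3 of the 1-day group, the count of called genes was 0. At 2 days PchiChr4G104010 did not pass (log2 fold change 3.65, SE 0.91, edgeR adjusted p = 0.0591).

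PchiChr2G038430, named CYP74A73, was the most abundant of the allene oxide synthases named by description. It stood at 127, 660 and 257 FPKM at 2 days, at 125, 130 and 294 FPKM at 1 day, and at 61.3, 78.5 and 56.4 FPKM in CK. It did not pass the test at 2 days (log2 fold change over CK 2.60, SE 0.67, edgeR adjusted p = 0.0641) or at 1 day (1.59, SE 0.64, edgeR adjusted p = 0.183). Other genes carry the allene oxide synthase entry, K01723, but are described only as unknown. Their means at 2 days, 1 day and CK were 83.1, 89.9 and 117 FPKM for PchiChr4G103520 and 56.5, 55.7 and 84.6 FPKM for PchiChr4G103480. They were 67.2, 51.6 and 54.3 FPKM for PchiChr4G103450 and 6.16, 8.54 and 17.4 FPKM for PchiChr4G103560. In CK, PchiChr4G103520 and PchiChr4G103480 thus lay above PchiChr2G038430, with its mean of 65.4 FPKM.

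At the other steps no gene passed the edgeR test, and each list is represented by its gene of lowest edgeR adjusted p. Among lipases, which free the fatty acid, PchiChr7G218740, named phospholipase A1-Ibeta2, averaged 2.18 ± 0.259 FPKM at 2 days, 2.38 ± 1.18 FPKM at 1 day and 0.237 ± 0.310 FPKM in CK (SD, n = 3 each; edgeR adjusted p = 0.138 at 1 day). PchiChr7G218730, of the same name, gave 4.12 on the log2 scale at 2 days over CK, with SE 1.46 and an edgeR adjusted p of 0.138. Between the days PchiChr2G051630, named phospholipase A1 LCAT3, gave -0.14 on the log2 scale, with SE 0.22 and an edgeR adjusted p of 0.969. These 3 lipases stayed under 10 FPKM in every library.

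The beta-oxidation enzymes act after the reductase. PchiChr4G096980, named for the multifunctional protein AIM1, averaged 77.2 ± 52.3 FPKM at 2 days, 17.1 ± 9.68 FPKM at 1 day and 14.8 ± 4.19 FPKM in CK (SD, n = 3 each). Its log2 fold change was 2.56 at 2 days over CK (SE 0.67, edgeR adjusted p = 0.0692) and 2.25 for 2 days over 1 day (SE 0.66, edgeR adjusted p = 0.954). PchiChr6G172290, named acyl-coenzyme A oxidase 2, gave 2.10 on the log2 scale at 1 day over CK, with SE 0.71 and an edgeR adjusted p of 0.129. PchiChr9G254650, named for JAR1, which joins jasmonic acid to an amino acid, averaged 13.8 ± 3.60 FPKM at 2 days, 14.1 ± 1.36 FPKM at 1 day and 17.6 ± 0.806 FPKM in CK. It did not pass the test in any contrast.

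**Figure D4:**
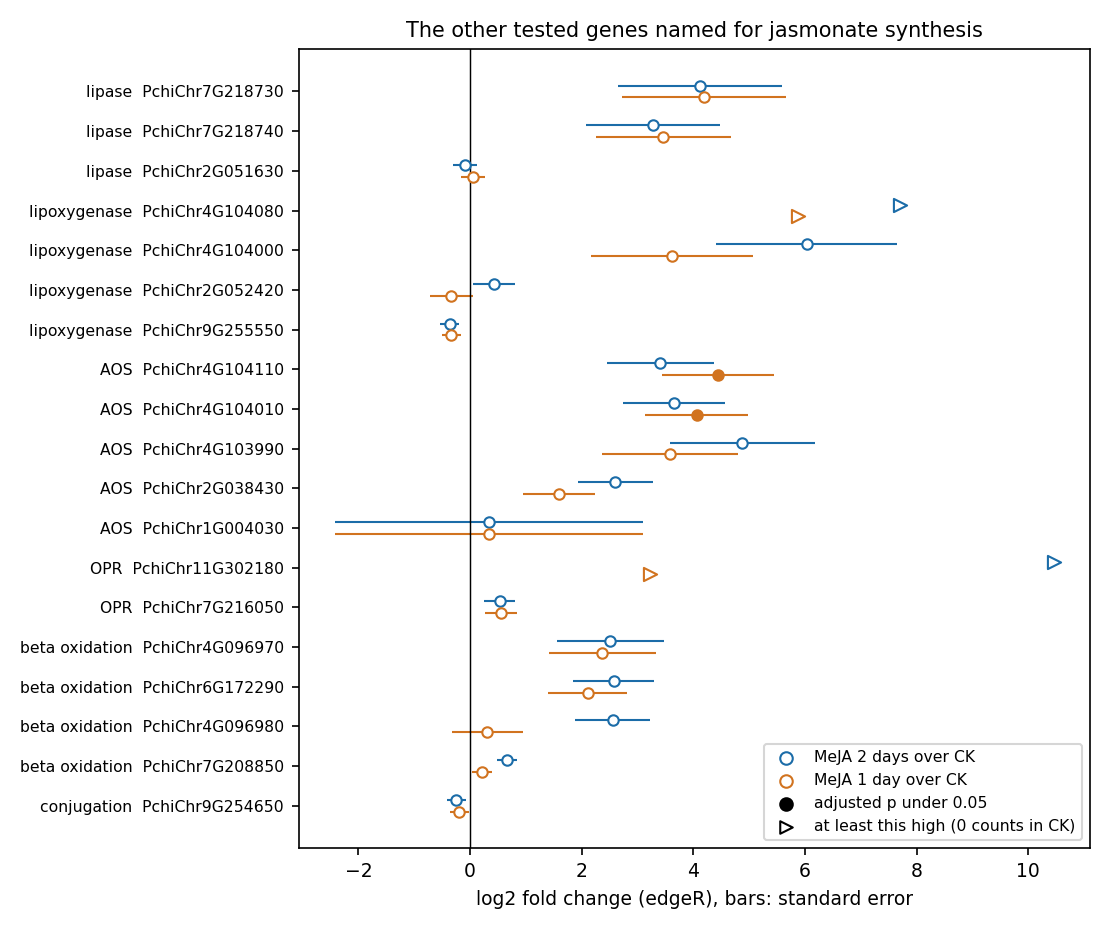
Log2 fold change over CK of the 19 other tested genes named for jasmonate synthesis, at MeJA 2 days (blue) and MeJA 1 day (orange), ordered by step. Circles are edgeR estimates with standard errors, filled where the adjusted p is under 0.05, and triangles are lower bounds for 2 genes with no count in CK. Of the filled circles, 2 allene oxide synthases at 1 day, the values are 4.06 and 4.44.

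Likeness of level across the 9 libraries was measured as the root mean square difference of mean-centred log2(FPKM + 1), over 7702 genes with an informative description and at least 1 FPKM in 3 libraries. All libraries entered, so the level in library 2 of the 1-day group weighed heavily. The 5 genes nearest to lipoxygenase 1 were PchiChr2G065040, described as AGO10 (0.698), PchiChr4G105200, a chitinase A (0.700), PchiChr4G112140, a UPF0496 protein (0.707), PchiChr1G030710, a wall-associated receptor kinase 2 (0.762), and PchiChr8G237990, an aspartyl protease (0.770). Each was highest in library 2 of the 1-day group, where PchiChr2G065040 reached 272 FPKM against 5.52 to 16.4 FPKM in the other treated libraries. The 5 nearest to the reductase began with PchiChr12G324380, a beta-glucosidase 40 (0.203), PchiChr10G290390, described as an indeterminate-domain 1 protein (0.234), and PchiChr1G033350, an aconitase A (0.269). Next came PchiChr5G133990, described as an FAE1/type III polyketide synthase-like protein (0.278), and PchiChr3G069330, a pyridoxal kinase (0.288). The enzyme numbers attached to PchiChr2G065040 and PchiChr10G290390, of a protein kinase and a beta-galactosidase, do not match their descriptions. The distances on the reductase list are smaller partly by construction, since a gene near 1 FPKM moves little on this scale. The 2 chosen genes were 1.69 apart from each other. On that measure the reductase was the 406th nearest gene to lipoxygenase 1, and lipoxygenase 1 the 7262nd nearest to the reductase.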

How the data were processed

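Leaf polyA RNA was extracted with TRIzol and made into libraries with the VAHTS Universal V6 kit according to the labels' protocols. Groups and replicate numbers come from the treatment labels and titles. The submitters' processing notes name fastp, HISAT2 and HTSeq, without versions or settings. The sources used here do not give the genome build, the annotation or the use of strand. A single table was deposited, with estimated counts and FPKM for each library. All 212 low deposited counts that could be checked exceeded the value expected from FPKM by 0 to 1 (tolerance 0.05). These were counts of 10 or fewer in genes that topped 2000 counts in a library. The deposited values were therefore taken to be estimated counts rounded up. They went into the tests unaltered. The deposited FPKM values were scaled by the authors to gene length and to a library size that the sources used here do not define.

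All 9 libraries entered 1 fit without covariates in edgeR 4.0.16 (R 4.3.3), tested by the two-sided quasi-likelihood F test. TMM factors were 0.878 to 1.09, and filterByExpr used a minimum count of 10. Benjamini-Hochberg adjustment ran over the 22384 genes kept, with a threshold of 0.05. Alternatives were another normalization, no filter, DESeq2 1.42.0, limma 3.58.1 on log2(FPKM + 1) or log2(FPKM + 0.1), the replicate number as a block, only the 6 libraries compared, and leaving out each library. No pair of libraries of a group agreed within sampling noise (chi-square per degree of freedom of 101 to 947). The genes studied, the pathway lists (text patterns matched to descriptions) and the tests were chosen with earlier results of these data known. Named genes were the chosen pair, lipoxygenases and reductases by description at 1 FPKM or more in a library, the gene of lowest adjusted p at each other step and contrast (ties settled by the unadjusted p), 2 flanking genes on each side and the 5 most alike in level. Genes named from orthology entries alone, and PchiChr2G038430 as the most abundant allene oxide synthase by description, were picked once their values were known. A list of chaperones summed to 3593 to 4724 FPKM at 2 days, 2268 to 2692 FPKM at 1 day and 3929 to 4509 FPKM in CK. A list for viral, fungal or insect proteins matched mostly retrotransposon proteins and was not read.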

Additional observations from a re-analysis of the deposited data

How the results depend on the processing

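Over 16 alternatives, lipoxygenase 1 kept its negative direction between the days and was never called, and the reductase kept its direction in 15 and was never called. With each library left out, the log2 fold change of 2 days over 1 day ran from -4.38 to -0.86 for lipoxygenase 1 and from -1.87 to 0.62 for the reductase, whose reversal to 0.62 came without library 2 of the 1-day group. Against CK, with each library left out, lipoxygenase 1 ran from 3.76 to 5.46 (log2) at 2 days and from 5.56, without library 2 of the 1-day group, to 8.79 at 1 day. Over the CK floor the reductase ran from 5.54 to 6.76 at 2 days and from 5.87 to 7.74 at 1 day. The other pathway genes called at 2 days over CK, 0 in the full edgeR fit, numbered 12 with DESeq2, 2 with limma on log2(FPKM + 1), 3 on log2(FPKM + 0.1), 1 with only the 6 libraries compared, and 0 to 6 with a library left out, 6 being without library 2 of the 1-day group. At 1 day over CK, 2 became 7 with DESeq2, 0 with only the 6 libraries, and 0 to 2 with a library left out. Over the whole table, 1107 calls at 2 days became 3932 with DESeq2, 1945 with only the 6 libraries, and 48 to 2893 with a library left out. The 1196 calls at 1 day became 3751, 534 and 134 to 1193 in the same settings. Between the days, 0 became 64 with DESeq2 and stayed 0 with any library left out, for the whole table and for the pathway genes. The cause of these moves was not tested. Whether replicate numbers pair the libraries was not settled. Deviations from the group means of same-numbered libraries correlated at 0.324, 0.042 and 0.289 between the treated groups. Library 2 of the 2-day group correlated best with library 3 of the 1-day group (0.118). With CK, same-numbered libraries correlated at 0.165, 0.134 and 0.027 for the 2-day group. For the 1-day group these values were -0.09, -0.108 and -0.038. With the replicate number as a block, calls at 1 day numbered 747 over the whole table, the pathway genes called at 2 days numbered 2, and the day contrast was -2.66 for lipoxygenase 1 and -0.62 for the reductase, neither called. Depth limits the CK values of both genes, at 154 and 0 counts over the group.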
